A study of Mus musculus with 27 samples.

Results

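Arginine and polyamine enzymes are followed here in mouse lung macrophages after intratracheal bacterial lipopolysaccharide (LPS). The 9 genes are Nos2, Arg1, Arg2, Ass1, Asl, Slc7a2, Odc1, Srm and Sat1, taken by gene symbol for their textbook place in arginine use and polyamine metabolism. They were chosen with earlier results of these data known, so member shares set beside those of all genes are descriptions only. They are 9 of the 38124 genes in the count table, and all 9 passed the filter on low counts. A further list of 40 genes of the same pathways was counted beside them. The study sequenced polyadenylated RNA of alveolar macrophages that had been washed from the airways and sorted, as 27 libraries in 9 groups of 3 (n = 3 in every group mean below), and its title asks how cell origin sets resident and recruited macrophages apart during acute lung injury. Recruited macrophages (CD11c-CD11b+) came from days 3, 6, 9 and 12 after LPS. Resident macrophages (CD11c+CD11b-) came from the same days and from untreated mice, here called day 0. All mice were C57B/6 and 8 to 14 weeks old, and the treated ones received 20 ng of LPS in 50 µL by the intratracheal route, the mass being printed as the labels have it. The populations were separated by surface markers alone, so origin and cell state cannot be told apart here, and untreated recruited cells were not analysed here. Separate animals behind the 3 libraries of a group are not stated in the labels. Without them, p-values measure nothing more than the spread between these samples, which may be technical.

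L-arginine enters macrophages through cationic amino acid transporters and is then used by competing enzymes. Inducible nitric oxide synthase turns it into nitric oxide and citrulline, while the arginases turn it into urea and ornithine. Citrulline can be built back into arginine by argininosuccinate synthase and argininosuccinate lyase. Ornithine is decarboxylated to putrescine, the base of spermidine and spermine, and spermidine/spermine N1-acetyltransferase starts the breakdown and export of these polyamines. In mice, nitric oxide synthase is known from macrophages exposed to bacterial products and arginase 1 from macrophages of repair and type 2 immunity.

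RefSeq stretches upstream of the start were available for 3 of the 9 genes, and they are shown because these genes followed different courses: Ass1 stayed raised in resident cells to day 12, resident Odc1 was called higher on day 3 alone, and Sat1 was lower on that day. Each line runs 5′ to 3′ on the strand of the gene in the build GRCm38.p6, ends at the base before the annotated gene start, and has matches to the searched motifs in capitals. The Ass1 stretch is chr2:31470020-31470206 (plus strand), the Odc1 stretch chr12:17544623-17544793 (plus strand) and the Sat1 stretch chrX:155216450-155216699 (minus strand).
Ass1: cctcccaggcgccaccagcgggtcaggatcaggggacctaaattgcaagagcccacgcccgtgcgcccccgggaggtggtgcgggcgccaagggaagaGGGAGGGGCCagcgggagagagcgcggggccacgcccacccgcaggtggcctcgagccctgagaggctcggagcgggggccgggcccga
Odc1: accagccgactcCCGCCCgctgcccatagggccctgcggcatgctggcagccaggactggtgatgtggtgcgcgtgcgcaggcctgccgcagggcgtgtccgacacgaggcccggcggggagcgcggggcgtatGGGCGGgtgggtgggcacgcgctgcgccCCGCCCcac
Sat1: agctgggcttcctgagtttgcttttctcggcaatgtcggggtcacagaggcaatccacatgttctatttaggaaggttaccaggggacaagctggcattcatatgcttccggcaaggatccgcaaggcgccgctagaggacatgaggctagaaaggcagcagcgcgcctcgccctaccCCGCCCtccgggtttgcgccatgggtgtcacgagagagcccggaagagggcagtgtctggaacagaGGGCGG
Both strands were searched for a kappaB pattern, spelled GGGA and CC with any 4 bases between them, and for the GC box written GGGCGG. The other motifs searched were the E-box (its letters are CACGTG), the TATA box (its letters are TATAAA), the AP-1 element (its letters are TGANTCA) and the GAS element, spelled TTC and GAA with any 3 bases between them. Ass1 held 1 kappaB match, a pattern found in 12.8% of all 32851 promoter stretches cut to the same length. Odc1 held 3 GC boxes (19.6% of stretches of its length held at least 1) and Sat1 held 2 (32.7%). No other searched motif matched in these windows. A match is a description of letters and not of a site in use.

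Libraries held 11093216 to 18299674 counts (median 14859352). Levels are counts scaled to a fixed library total (CPM) after TMM normalization, differences are log2 ratios ± standard error (SE), and a gene was called when the adjusted p of edgeR's quasi-likelihood test over all 13599 tested genes was under 0.05. Over 10 markers of resident alveolar macrophages, recruited libraries summed to 2209 to 10250 CPM and resident libraries to 15480 to 33080 CPM. Over 11 markers of monocytes and monocyte-derived macrophages, recruited libraries summed to 7242 to 28710 CPM and resident libraries to 427 to 1569 CPM. Single genes carried much of these sums. Chil3 made up most of the resident-marker sum in every group, with means of 11800 to 23600 CPM in resident and 2240 to 5410 CPM in recruited groups. Mean Apoe was 1130 CPM in recruited cells of day 3. It made up most of the recruited monocyte sum on days 6, 9 and 12 (14400, 12100 and 9990 CPM). Some recruited libraries stood apart from their own group. Recruited day 9 replicate 2 and day 12 replicate 1 had the monocyte sums 28710 and 25740 CPM, against 7242 to 12290 CPM in the other recruited libraries of those days, and recruited day 9 replicate 3 and day 12 replicates 2 and 3 had resident sums of 8197 to 10250 CPM, against 2209 to 3925 CPM in the other 9 recruited libraries. Recruited day 9 replicate 2 and day 12 replicate 1 carry the library numbers 17 and 18. Such numbers stand before the group names in the deposited counts of unassigned reads, and their meaning is not given. They were cut here into 4 runs, of the numbers 2 to 9, 12 to 18, 19 to 28 and 34 to 53. These libraries thus fall in run 2, which may mark a batch. The resident libraries of that run, day 9 replicate 2 and day 12 replicate 1, had pan-macrophage marker sums of 41850 and 43020 CPM. The other resident libraries of those days had 25050 to 27780 CPM. Lyz2 made up most of these pan-macrophage sums by group mean (29900 and 29600 CPM in resident cells of days 9 and 12). In bulk RNA, fewer cells of a type and less RNA per cell cannot be told apart.

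Per kilobase of exon, the scale on which genes can be set against each other, the order of the 9 genes differed between groups. In recruited cells of day 3, Nos2 (540.1 CPM per kb) and Arg1 (530.3 CPM per kb) had the highest mean levels, followed by Slc7a2 (229.6 CPM per kb) and Ass1 (99.9 CPM per kb). In resident cells of the same day, Slc7a2 (163.4 CPM per kb) and Sat1 (58.9 CPM per kb) came first, with Nos2 at 18.9 CPM per kb and Arg1 at 11.4 CPM per kb. Untreated resident cells had Sat1 at 138.2 CPM per kb and Slc7a2 at 82.4 CPM per kb, while Ass1 (0.441 CPM per kb), Arg1 (0.183 CPM per kb) and Nos2 (no count) were the lowest. By day 12, recruited cells had Slc7a2 (133.2 CPM per kb) and Sat1 (91.9 CPM per kb) on top, with Arg1 at 34.1 CPM per kb and Nos2 at 0.452 CPM per kb. The order depends on the length used. Per kilobase of the longest transcript, Arg1 (800 CPM per kb) was above Nos2 (568.5 CPM per kb) in recruited cells of day 3, and Sat1 (188.5 CPM per kb) above Slc7a2 (153.8 CPM per kb) in those of day 12.

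**Figure D1:**
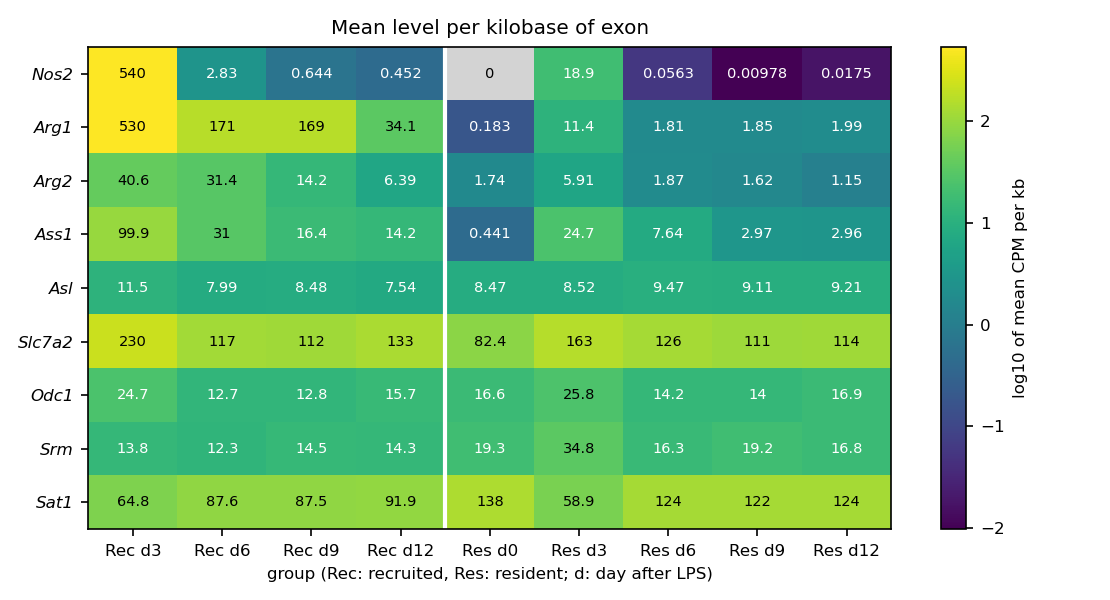
Mean level of each gene in each of the 9 groups, in CPM per kilobase of exon union, printed in each cell and coloured on a log10 scale (n = 3 libraries per group; grey, no count). Nos2 spans the widest range, with 540.1 CPM per kb in recruited day 3 and no count in untreated resident cells, while Asl stays between 7.54 and 11.5 CPM per kb.

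Slc7a2 (ENSMUSG00000031596, chromosome 8, 40862396 to 40922308, plus strand, GRCm38) encodes CAT2, the inducible cationic amino acid transporter that imports arginine. Recruited cells had 2335, 2501 and 1456 CPM on day 3, 1296, 1113 and 802.4 CPM on day 6, 1200, 607.2 and 1265 CPM on day 9, and 819.3, 1477 and 1354 CPM on day 12. Resident cells had 655.6, 823.1 and 778.3 CPM on day 0, 1385, 1470 and 1622 CPM on day 3, 1240, 1194 and 1027 CPM on day 6, 982.2, 1052 and 1011 CPM on day 9, and 1150, 1035 and 941.2 CPM on day 12. Untreated cells were thus below all other resident libraries, and on each day the populations overlapped. In resident cells Slc7a2 rose by 0.99 ± 0.24 log2 on day 3 against day 0 (adjusted p = 0.0049), and the later days were not called, at 0.62, 0.43 and 0.47 log2 on days 6, 9 and 12. Day 6 was called in the compared groups alone (0.59 log2, adjusted p = 0.0124). In recruited cells it fell on all 3 later days against day 3, by 0.97 log2 on day 6 (adjusted p = 0.00363), 1.03 log2 on day 9 (adjusted p = 0.00188) and 0.79 log2 on day 12 (adjusted p = 0.0122). The day 12 call was lost without recruited day 12 replicate 1 (-0.54 log2, adjusted p = 0.0865) and without recruited day 3 replicate 2 (-0.64 log2, adjusted p = 0.0677), and with scaling by library size alone (-0.67 log2, adjusted p = 0.0616). The day 9 call was lost in a fit of the compared groups alone (-1.02 log2, adjusted p = 0.0597), as was that of day 12 (-0.78 log2, adjusted p = 0.069). Recruited and resident cells were not called apart on any day, with differences of 0.49, -0.11, 0.01 and 0.22 log2 on days 3, 6, 9 and 12. Without recruited day 3 replicate 3, the day 3 difference was called (0.70 log2, adjusted p = 0.0276). A long noncoding RNA gene on the opposite strand, Gm26584, overlaps exons of Slc7a2, and how the counting treated strand is not stated in the labels.

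Nos2 (ENSMUSG00000020826, chromosome 11, 78920787 to 78960254, plus strand) encodes inducible nitric oxide synthase. Recruited cells had 1402, 3801 and 1946 CPM on day 3, 13.6, 14.1 and 9.76 CPM on day 6, 4.33, 1.73 and 2.47 CPM on day 9, and 1.44, 1.68 and 2.87 CPM on day 12. Resident cells had no count in any untreated library, 114.7, 55.6 and 80.1 CPM on day 3, and 11, 2 and 4 counts over the 3 libraries of days 6, 9 and 12. Day 3 was far above all other days in both populations, and on each day every recruited library was above every resident one. The level of resident cells on day 3 (83.5 ± 29.7 CPM, SD) was above that of recruited cells on day 6 (12.5 ± 2.38 CPM), with no overlap of libraries.

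On day 3 Nos2 was 4.83 ± 0.41 log2 higher in recruited than in resident cells (adjusted p = 2.16e-08). Later differences rest on few resident counts, and they are given as ratios of CPM with the 95% interval of counting error alone. Recruited cells were 50.7-fold higher on day 6 (28.1 to 102), 73.6-fold higher on day 9 (20.0 to 614) and 24.5-fold higher on day 12 (9.24 to 92). Each of these days was also called by edgeR, at 5.63 log2 on day 6 (adjusted p = 6.09e-07), 5.87 log2 on day 9 (adjusted p = 4.44e-05) and 4.46 log2 on day 12 (adjusted p = 0.000628). The day 6 and day 12 values were 6.50 without resident day 6 replicate 1 and 5.58 without resident day 12 replicate 3. Lower bounds against the untreated group were taken from counts pooled over the 3 libraries of each group, with 3 counts in place of 0 (0.0674 CPM), so they can differ from ratios of the mean CPM above. By this measure Nos2 was at least 1267-fold higher in resident cells of day 3 (adjusted p = 3.38e-09). Day 6 was at least 3.61-fold higher than that floor without being called (adjusted p = 0.201, and 0.0164 by DESeq2). In day 3 libraries of the same replicate number (1, 2 and 3), resident Nos2 stood at 8.18%, 1.46% and 4.12% of the recruited level. The median of 10 monocyte and macrophage markers (those above without Itgam) stood at 5.1%, 2.58% and 3.24%. Single markers ranged from 0.709% to 38.9%. The part of such cells in resident Nos2 was not tested. In recruited cells Nos2 fell by 7.58 ± 0.47 log2 on day 6 against day 3 (adjusted p = 1.31e-09), and the day 12 difference was -10.18 ± 0.53 log2 (adjusted p = 7.45e-11). Recruited cells of day 12, in pooled counts, were still at least 30.8-fold above untreated resident cells (adjusted p = 0.000145).

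**Figure D2:**
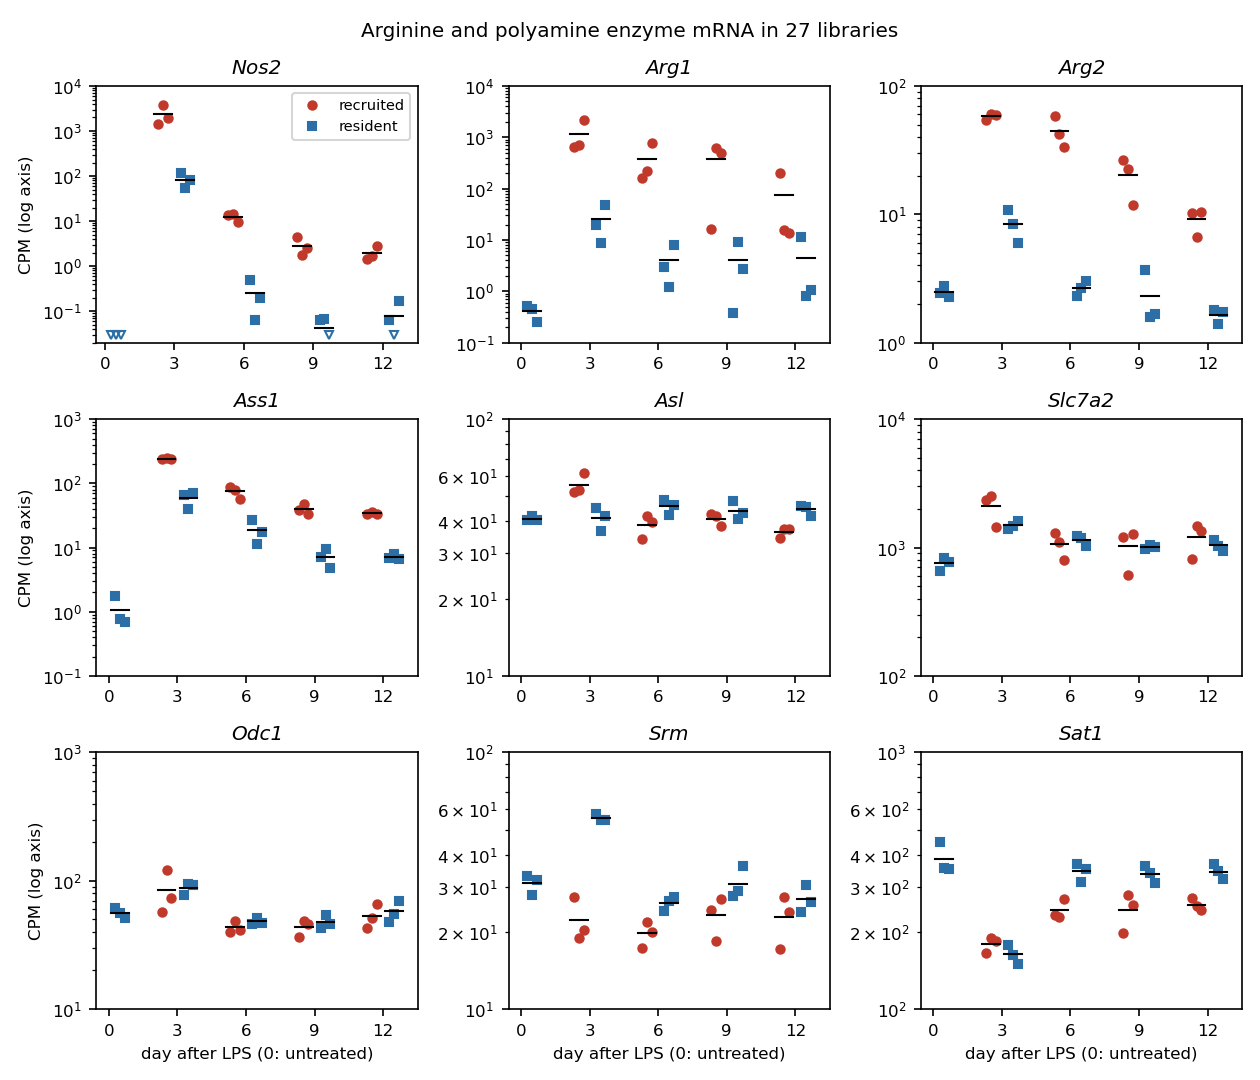
Level of each of the 9 genes in each library, in CPM on a log axis, by day after LPS (day 0, untreated). Red circles are recruited and blue squares resident libraries, black bars are means of 3, and open triangles mark libraries with no count. Nos2, Arg1, Arg2 and Ass1 lie higher in recruited libraries on every day, and Sat1 is lowest on day 3 in both populations.

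Arg1 (ENSMUSG00000019987, chromosome 10, 24915221 to 24927484, minus strand) encodes cytosolic arginase 1. Recruited cells had 661.8, 704.3 and 2179 CPM on day 3, 159.4, 220.6 and 760 CPM on day 6, 16.3, 631 and 485.2 CPM on day 9, and 198.4, 15.4 and 14.0 CPM on day 12. Resident cells had 0.514, 0.460 and 0.252 CPM on day 0, 19.8, 8.59 and 47.9 CPM on day 3, 2.92, 1.24 and 7.93 CPM on day 6, 0.378, 9.29 and 2.73 CPM on day 9, and 11.4, 0.809 and 1.06 CPM on day 12. Arg1 was the most uneven of the 9 genes within groups: on day 9, recruited replicate 1 had 16.3 CPM beside 631 and 485.2 CPM. Within each day, though, every recruited library was above every resident one.

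Averaged over days, Arg1 was 5.67 ± 0.73 log2 higher in recruited cells (12 libraries per population, adjusted p = 1.23e-06). By day it was higher by 5.53 log2 on day 3 (adjusted p = 0.00323), 6.55 log2 on day 6 (adjusted p = 0.00212), 6.52 log2 on day 9 (adjusted p = 0.00236) and 4.09 log2 on day 12 (adjusted p = 0.0337). The day 12 value rested on single libraries. It was 1.74 log2 without recruited replicate 1 (adjusted p = 0.385), 3.61 without resident replicate 2 (adjusted p = 0.121), 3.60 without resident replicate 3 (adjusted p = 0.125) and 6.34 without resident replicate 1 (adjusted p = 0.0203), and it was not called without the count filter (adjusted p = 0.0683) or in the compared groups alone (adjusted p = 0.129). The day 3 value was 6.36 without resident replicate 3 and 4.73 without recruited replicate 3, the day 6 value 7.53 and 5.55 without the same replicates of that day, and the day 9 value 7.91 without resident replicate 2, all of them called.

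In resident cells Arg1 rose by 5.95 ± 1.82 log2 on day 3 against day 0 (adjusted p = 0.0232), a call that was lost without resident day 0 replicate 1 (6.17 log2, adjusted p = 0.0661), replicate 2 (6.04 log2, adjusted p = 0.072) or replicate 3 (5.69 log2, adjusted p = 0.0858), or without day 3 replicate 3 (5.11 log2, adjusted p = 0.0878). Days 6, 9 and 12 were not called, at 3.29, 3.31 and 3.43 log2, and these values rested on single libraries. They were 2.30 without resident day 6 replicate 3, 1.93 without day 9 replicate 2 and 1.18 without day 12 replicate 1, and day 6 was called in the compared groups alone (3.27 log2, adjusted p = 0.0324). In recruited cells Arg1 did not pass the test on days 6 and 9 against day 3 (-1.64 and -1.65 log2), though day 9 passed with a covariate for runs of library numbers (-2.45 log2, adjusted p = 0.0347), and it fell by 3.97 ± 1.31 log2 on day 12 (adjusted p = 0.0208). That call was lost without recruited day 3 replicate 3 (-3.18 log2, adjusted p = 0.075), day 12 replicate 2 (-3.48 log2, adjusted p = 0.0798) or day 12 replicate 3 (-3.47 log2, adjusted p = 0.0769), and in the compared groups alone (-3.95 log2, adjusted p = 0.087), and the fall was 6.31 log2 without day 12 replicate 1.

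The library with the highest Arg1 of its day carried the same replicate number in both populations on all 4 days: replicate 3 on days 3 and 6, replicate 2 on day 9 and replicate 1 on day 12. On days 9 and 12 these were the libraries of run 2 of the library numbers, and the part of the run in their Arg1 was not tested. Resident Arg1 stood at 1.22% to 3% of the recruited level of the same number on day 3, at 0.561% to 1.83% on day 6, at 0.563% to 2.32% on day 9 and at 5.27% to 7.61% on day 12. Over 10 monocyte and macrophage markers (the 11 above without the sort marker gene Itgam), the median resident share of the recruited level in these 12 pairs was 1.75% to 5.66%. The lowest marker, F13a1, C1qa or Ly6c2, was at 0.223% to 2.4%, and the highest marker at 30.7% to 119%. Their part in resident Arg1 was not tested. In recruited cells of day 12, replicate 1 had the highest Arg1 (198.4 CPM) and a monocyte marker sum of 25740 CPM, against 15.4 and 14.0 CPM of Arg1 beside sums of 7242 and 8773 CPM in replicates 2 and 3, and the part of the cell mixture in this spread was not tested either. On day 9 the match was looser: replicate 3 had 485.2 CPM of Arg1 at a monocyte sum of 11740 CPM, and replicate 1 had 16.3 CPM at 12290 CPM. By group mean, Apoe made up most of these recruited sums (12100 CPM on day 9 and 9990 CPM on day 12).

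**Figure D3:**
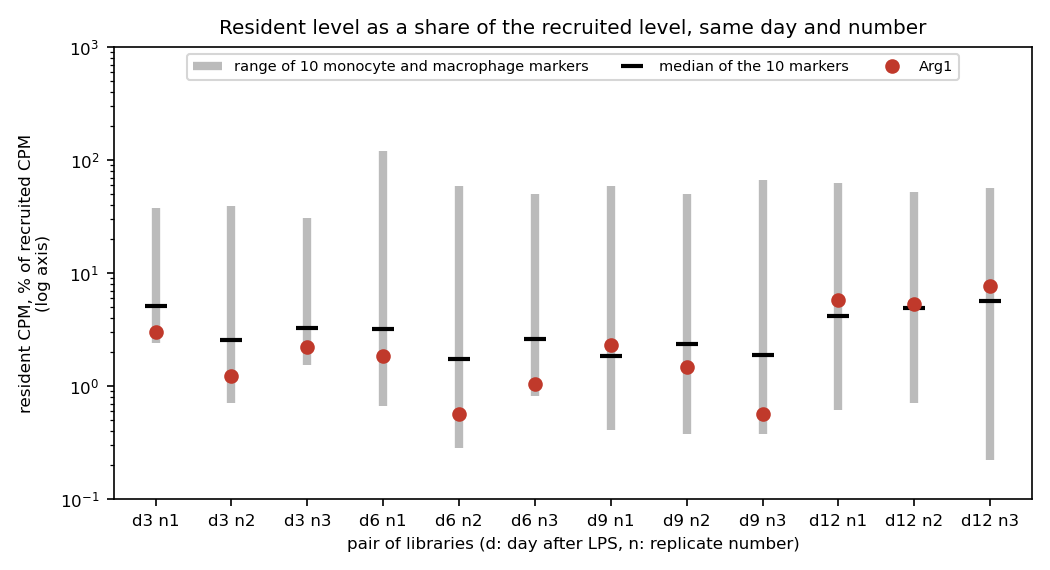
Resident level as a percentage of the recruited level (log axis) in the 12 pairs of libraries of the same day (d) and replicate number (n). Grey bars span 10 monocyte and macrophage markers, black bars are their medians (1.75% to 5.66%), and red points are Arg1, which lies between 0.561% and 7.61%.

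Set against Nos2 per kilobase, Arg1 differed most between day 3 and later days. The log2 ratio of Arg1 to Nos2 in recruited libraries was -1.45, -0.10 and 1.15 on day 3 (lowest, median, highest), 4.53, 4.95 and 7.27 on day 6, 2.90, 8.60 and 9.50 on day 9, and 3.27, 4.18 and 8.10 on day 12. Both mRNAs were thus at like levels on day 3 and Arg1 was above Nos2 in all 9 later recruited libraries. In resident cells of day 3 the ratio was -1.71, -1.55 and 0.24. Later resident libraries held 0 to 7 Nos2 counts each, too few for a ratio. Markers of neutrophils, another cell type that airway lavage could hold, summed to 503 to 1022 CPM in recruited and 215 to 242 CPM in resident cells of day 3, higher than on any other day. Of these 12 markers Elane was at 0 in both groups and Mpo in resident cells, and mean Ly6g was 0.152 CPM in recruited and 0.0854 CPM in resident cells. Others were higher. In recruited cells of day 3, mean S100a8 was 159 CPM, S100a9 102 CPM and Csf3r 420 CPM. In resident cells these were at 59.6, 46.4 and 84.1 CPM on day 3, against 3.32, 0.133 and 72.3 CPM on day 0. Resident Cxcr2 (11.3 against 14.4 CPM) and Mmp8 (19.9 against 35.8 CPM) were lower on day 3 than on day 0. Over 6 endothelial and stromal markers the sum was 16.02 to 26.63 CPM in recruited cells of day 3, against 1.20 to 4.09 CPM on later recruited days, with Pecam1 (19.8 CPM on day 3) making up most of it. The part of either list in the day 3 levels was not tested.

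Arg2 (ENSMUSG00000021125, chromosome 12, 79130777 to 79156301, plus strand) encodes mitochondrial arginase 2. Recruited cells had 54.4, 60.1 and 59.6 CPM on day 3, 58.8, 42.4 and 33.4 CPM on day 6, 26.6, 22.4 and 11.8 CPM on day 9, and 10.2, 6.70 and 10.4 CPM on day 12. Resident cells had 10.9, 8.43 and 5.98 CPM on day 3 with all 12 libraries of the other days at 3.66 CPM or lower. In recruited cells the level was thus lower on later days, and on each day all recruited libraries were above all resident ones. The difference was 2.78 ± 0.29 log2 on day 3 (adjusted p = 7.74e-08), 4.07 ± 0.32 log2 on day 6 (adjusted p = 3.3e-09), 3.13 ± 0.32 log2 on day 9 (adjusted p = 1.14e-07) and 2.46 ± 0.34 log2 on day 12 (adjusted p = 9.83e-06). Against day 3, recruited Arg2 fell by 1.51 log2 on day 9 (adjusted p = 0.000152) and 2.67 log2 on day 12 (adjusted p = 1.77e-07), and day 6 was not called (-0.37 log2). Resident Arg2 rose by 1.76 ± 0.32 log2 on day 3 against day 0 (adjusted p = 0.000388). The population difference on day 6 exceeded that on day 3 by 1.28 ± 0.41 log2 without being called (adjusted p = 0.0576). With same-numbered libraries of a day as a replicate block it was called (1.22 log2, adjusted p = 0.0203). It was also called without recruited day 6 replicate 3 (1.46 log2, adjusted p = 0.0384) or resident day 3 replicate 3 (1.49 log2, adjusted p = 0.0356), by DESeq2 (adjusted p = 0.0296), with the run covariate (adjusted p = 0.0321), with scaling by library size (adjusted p = 0.0417) and in the compared groups alone (adjusted p = 0.0266). Exons of Arg2 overlap Vti1b on the opposite strand, so reads of the pair may not be fully separated.

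Citrulline recycling rests on Ass1 and Asl, and these genes behaved unlike each other. Ass1 (ENSMUSG00000076441, chromosome 2, 31470207 to 31520672, plus strand), argininosuccinate synthase, is the step usually held to limit arginine rebuilding. Recruited cells had 242.3, 244.8 and 236.5 CPM on day 3, 89.3, 77.9 and 57.4 CPM on day 6, 38.4, 47.5 and 32.9 CPM on day 9, and 33.5, 35.3 and 33.7 CPM on day 12. Resident cells had 1.74, 0.766 and 0.692 CPM on day 0, 66.8, 40.5 and 71.8 CPM on day 3, 26.6, 11.3 and 17.5 CPM on day 6, 7.19, 9.55 and 4.76 CPM on day 9, and 6.88, 8.02 and 6.55 CPM on day 12. Every resident library after LPS was above every untreated one, and on each day recruited libraries were above resident ones.

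Ass1 was the only 1 of the 9 genes that was called in resident cells on all 4 days after LPS. Against day 0 it rose by 5.79 ± 0.37 log2 on day 3 (adjusted p = 5.06e-10), 4.09 ± 0.37 log2 on day 6 (adjusted p = 8.29e-07), 2.72 ± 0.38 log2 on day 9 (adjusted p = 0.00045) and 2.72 ± 0.38 log2 on day 12 (adjusted p = 0.000337). These 4 comparisons share the day 0 libraries. Recruited cells had more Ass1 than resident cells by 2.01 log2 on day 3 (adjusted p = 3.34e-06), 2.02 log2 on day 6 (adjusted p = 6.9e-06), 2.47 log2 on day 9 (adjusted p = 1.19e-06) and 2.26 log2 on day 12 (adjusted p = 6.98e-06). The change of this difference since day 3 was not called on any day (0.01, 0.46 and 0.25 log2 on days 6, 9 and 12, with standard errors of 0.37 to 0.39). In recruited cells Ass1 fell by 1.69, 2.61 and 2.82 log2 on days 6, 9 and 12 against day 3, each called (adjusted p = 6.14e-05, 2.85e-07 and 8.16e-08). Monocyte and macrophage markers stood at a median of 1.75% to 5.66% of the recruited level in paired resident libraries, and resident Ass1 stood at 14.5% to 30.4% of it in the same 12 pairs. The highest of these markers stood at 30.7% to 119%. The part of such cells in resident Ass1 was not tested.

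Asl (ENSMUSG00000025533, chromosome 5, 130011258 to 130029247, minus strand), argininosuccinate lyase, varied little. Recruited cells had 52.2, 52.8 and 61.7 CPM on day 3 and 34.2 to 42.6 CPM in the 9 later libraries, and resident cells had 36.6 to 48.6 CPM over all 15 libraries. Only recruited cells of day 3 stood above the rest. They were 0.43 ± 0.10 log2 above resident cells of that day (adjusted p = 0.000924), and against them recruited cells fell by 0.53, 0.44 and 0.61 log2 on days 6, 9 and 12 (adjusted p = 0.00028, 0.00124 and 3.48e-05). Resident Asl was not called on any day against day 0, with 0.01 to 0.16 log2. On day 12 recruited cells were lower by -0.29 ± 0.10 log2 (adjusted p = 0.0325). That call was lost without recruited day 12 replicate 1 (-0.23 log2, adjusted p = 0.155), replicate 2 (-0.31 log2, adjusted p = 0.0515) or replicate 3 (-0.31 log2, adjusted p = 0.0518), and without resident day 12 replicate 1 (-0.23 log2, adjusted p = 0.142) or replicate 2 (-0.27 log2, adjusted p = 0.0921). It was also lost with scaling by library size (adjusted p = 0.0902), without the count filter (adjusted p = 0.0854) and in the compared groups alone (adjusted p = 0.0913). On day 6 recruited cells were not called lower (-0.25 log2, adjusted p = 0.0572), and they were without resident day 6 replicate 2 (-0.30 log2, adjusted p = 0.0421).

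Odc1 (ENSMUSG00000011179, chromosome 12, 17544794 to 17551505, plus strand) encodes ornithine decarboxylase, the regulated entry into polyamine synthesis. Recruited cells had 57.3, 121.8 and 73.5 CPM on day 3, and 36.3 to 65.7 CPM in the 9 later libraries. Resident cells had 61.5, 56.2 and 51.6 CPM on day 0, 77.5, 93.8 and 92.3 CPM on day 3, and 43.1 to 69.4 CPM in the 9 later libraries. Both populations were highest on day 3, with recruited replicate 2 far above its group, and the populations overlapped on every day. Resident Odc1 rose by 0.64 ± 0.20 log2 on day 3 against day 0 (adjusted p = 0.0252). This was lost without day 0 replicate 2 (0.64 log2, adjusted p = 0.0682) or replicate 3 (0.58 log2, adjusted p = 0.0965) and without day 3 replicate 2 (0.59 log2, adjusted p = 0.0723) or replicate 3 (0.60 log2, adjusted p = 0.0846). Recruited Odc1 fell by 0.96, 0.95 and 0.66 log2 on days 6, 9 and 12 against day 3 (adjusted p = 0.000967, 0.000821 and 0.0127). On day 12 that was lost without recruited day 3 replicate 2 (-0.29 log2, adjusted p = 0.216), without day 12 replicate 1 (-0.50 log2, adjusted p = 0.0823) and in the compared groups alone (-0.65 log2, adjusted p = 0.14). The populations were not called apart on any day, with differences of -0.06 to -0.16 log2 and standard errors of 0.20. The mean over days was not called either (-0.12 log2, adjusted p = 0.336), and it was without recruited day 3 replicate 2 (-0.21 log2, adjusted p = 0.0323).

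Srm (ENSMUSG00000006442, chromosome 4, 148591503 to 148594993, plus strand) encodes spermidine synthase, which makes spermidine from putrescine. Recruited cells had 27.4, 18.9 and 20.3 CPM on day 3 and 17.2 to 27.4 CPM in the 9 later libraries. Resident cells had 32.9, 27.8 and 31.9 CPM on day 0, 57.7, 54.3 and 54.8 CPM on day 3, and 23.9 to 36.1 CPM in the 9 later libraries. Resident cells of day 3 stood above all others, and recruited cells showed no such day. Resident Srm rose by 0.85 ± 0.16 log2 on day 3 against day 0 (adjusted p = 0.000673) and no later day was called. Recruited cells were lower by -1.33 ± 0.17 log2 on day 3 (adjusted p = 9.04e-07), and the differences of -0.40, -0.41 and -0.23 log2 on days 6, 9 and 12 were not called. With same-numbered libraries of a day as a replicate block, days 6 and 9 were called at -0.40 log2 (adjusted p = 0.0124) and -0.41 log2 (adjusted p = 0.0107), and day 9 was also called without recruited day 9 replicate 3 (-0.52 log2, adjusted p = 0.0373). With the run covariate both were called as well (adjusted p = 0.0256 and 0.0189), and day 6 also in the compared groups alone (-0.39 log2, adjusted p = 0.0307). In all 12 pairs of the same day and number the recruited library was the lower one. Relative to day 3, the population difference had moved by 0.93 log2 on day 6 (adjusted p = 0.0156), 0.92 log2 on day 9 (adjusted p = 0.0113) and 1.09 log2 on day 12 (adjusted p = 0.00327), and the day 6 call was lost without recruited day 3 replicate 2 (0.82 log2, adjusted p = 0.0529). Recruited Srm was not called on any day against day 3 (-0.17, 0.07 and 0.04 log2).

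Sat1 (ENSMUSG00000025283, chromosome X, 155213132 to 155216449, minus strand) encodes spermidine/spermine N1-acetyltransferase 1. Recruited cells had 165.6, 189.9 and 183.5 CPM on day 3, 232.4, 227.7 and 268.6 CPM on day 6, 197.3, 277.3 and 253.4 CPM on day 9, and 270.5, 251.3 and 242.7 CPM on day 12. Resident cells had 446.2, 353.8 and 350.2 CPM on day 0, 177.5, 162.3 and 150.1 CPM on day 3, and 309.7 to 369.2 CPM in the 9 later libraries. It was the only 1 of the 9 genes called lower in resident cells of day 3 against day 0, by -1.23 ± 0.12 log2 (adjusted p = 2.03e-07), and the later resident days were not called (-0.15, -0.18 and -0.16 log2). The 3 resident libraries of day 3 were below all other resident libraries. The sum of 6 eosinophil and basophil markers moved with it, at 139.4 to 248.7 CPM in resident cells of day 3 and 325.5 to 621.9 CPM in all other resident libraries, almost all of it Siglecf, which resident alveolar macrophages also express. Of the defining genes Prg2, Epx and Mcpt8 were at 0 in every resident group. Its part in the Sat1 level was not tested. Recruited Sat1 rose against day 3 by 0.43 log2 on day 6 (adjusted p = 0.00907), 0.43 log2 on day 9 (adjusted p = 0.00814) and 0.50 log2 on day 12 (adjusted p = 0.00223). The day 6 call was lost without recruited day 6 replicate 3 (0.36 log2, adjusted p = 0.0521), and that of day 9 in the compared groups alone (0.45 log2, adjusted p = 0.087). The populations were not called apart on day 3 (0.14 ± 0.12 log2), and recruited cells were lower by -0.51 log2 on day 6 (adjusted p = 0.00227), -0.48 log2 on day 9 (adjusted p = 0.00423) and -0.43 log2 on day 12 (adjusted p = 0.0108). The day 12 call was lost without resident day 12 replicate 1 (-0.35 log2, adjusted p = 0.0751), and that of day 9 in the compared groups alone (-0.47 log2, adjusted p = 0.0985).

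Ordered by mean level over the 9 groups, most neighbours overlapped, and 17 of the 72 neighbouring steps over all genes had no shared range. Nos2 and Ass1 had the most such steps, 4 each. For Nos2, recruited day 3 (2383 CPM), resident day 3 (83.5 CPM) and recruited day 6 (12.5 CPM) were each apart from the next, recruited days 9 and 12 overlapped, and recruited day 12 (1.99 CPM) was apart from the later resident days. Arg1 had a single step without overlap, that between resident day 6 (4.03 CPM) and untreated resident cells (0.409 CPM). For Ass1, recruited day 3 (241.2 CPM) was apart from recruited day 6 (74.9 CPM), which overlapped resident day 3 (59.7 CPM). Recruited day 12 (34.2 CPM) was apart from resident day 6 (18.4 CPM), resident day 6 from day 9 (7.17 CPM), and untreated resident cells (1.07 CPM) were apart from resident day 12 (7.15 CPM). Odc1 had no step without overlap.

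In the mean over days, recruited cells were thus higher than resident cells in nitric oxide synthase, both arginases and argininosuccinate synthase. In that mean they were lower in spermidine synthase and the acetyltransferase. By day, spermidine synthase was called lower on day 3 alone in the main fit. With the replicate block it was called lower on days 6 and 9 as well (adjusted p = 0.0124 and 0.0107). The acetyltransferase was called lower on days 6, 9 and 12 but not on day 3. Averaged over days, 6 of the 9 genes were called, against 60.3% of all genes tested: Nos2, Arg1, Arg2 and Ass1 were the 4 higher ones (30.3% of all genes were higher), and Srm and Sat1 the 2 lower ones (30%). On day 3, 6 of 9 were called (46.6% of all genes), 5 higher (23.2%) and 1 lower (23.5%). There were 5 on day 6 (35%), 4 higher (16.2%) and 1 lower (18.8%), and 5 on day 9 (32%), again 4 higher (15.5%) and 1 lower (16.4%). Day 12 had 6 (27.3%), 4 higher (12.6%) and 2 lower (14.7%), and 4 to 5 when any single library of its groups was left out. Every recruited library was above every resident one of its day for Nos2, Arg1, Arg2 and Ass1 on all 4 days, as was so for 8.82% of all genes. Taken singly, days 3, 6, 9 and 12 had 28.6%, 23.5%, 18.9% and 18.7% of all genes so placed. The median difference over the 9 genes averaged over days was 0.15 log2, and over all genes 0.02 log2, while the median size without sign was 0.59 log2 and 0.32 log2. Among the 12 same-numbered pairs, the recruited library was the higher one in 12 of 12 for Nos2, Arg1, Arg2 and Ass1, and in 7 for Slc7a2. It was the lower one in 12 for Srm, 11 for Odc1, 10 for Sat1 and 8 for Asl. Within the 4 runs of library numbers, which may mark batches, the median pair difference had the same sign in every run for each of the 6 called genes, with 3.09 to 5.18 log2 for Nos2 and 5.05 to 6.83 log2 for Arg1.

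**Figure D4:**
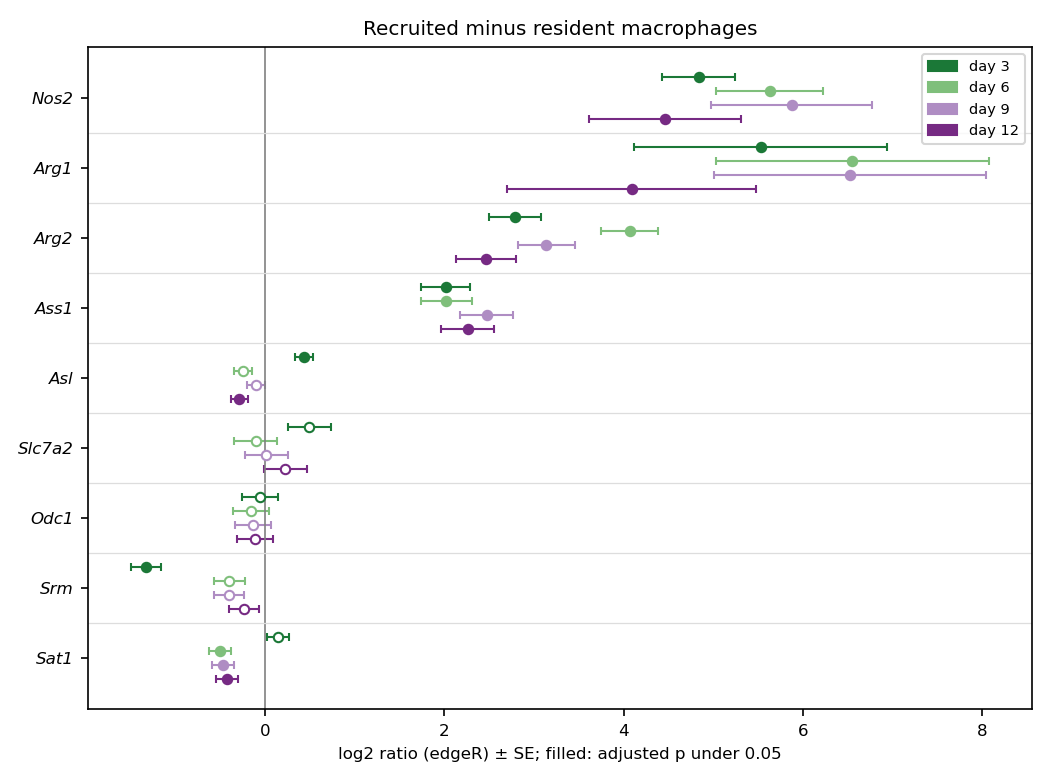
Log2 ratio of recruited to resident macrophages for the 9 genes on days 3, 6, 9 and 12, with standard errors. Filled points have an adjusted p under 0.05 over all genes tested, and open points do not. Nos2, Arg1, Arg2 and Ass1 lie between 2.01 and 6.55, Srm is lowest on day 3 (-1.33), and Sat1 is below 0 from day 6 on. Nos2 of days 9 and 12 rests on 2 and 4 resident counts.

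Resident cells of day 3 had 8 of the 9 genes called against day 0 (23.8% of all genes), 7 higher (13.3%) and Sat1 lower (10.5%), with Asl not called. On days 6, 9 and 12, 1 gene was called each time (6.42%, 3.49% and 1.3% of all genes), and it was Ass1. Higher calls made up 3.77%, 1.61% and 1.1% of all genes on these days, and lower calls, of which the members had 0, made up 2.65%, 1.88% and 0.206%. The median of the 9 was 0.99 log2 on day 3 and 0.12 log2 on day 12, against 0.00 and 0.02 log2 over all genes. Recruited cells against their own day 3 had 6 genes called on day 6 (31.9% of all genes), 7 on day 9 (36.3%) and 8 on day 12 (39.3%), with Sat1 higher each time (15.1%, 18.2% and 19.8% of all genes were higher) and the others lower (16.8%, 18% and 19.5%). These recruited comparisons share the day 3 libraries. Over any of the days, 7 of 9 genes changed in resident cells (26.1% of all genes) and 7 of 9 in recruited cells (37.5%). The exceptions were Arg1 and Asl in resident cells and Arg1 and Srm in recruited ones. Resident Arg1 (adjusted p = 0.0759) was called by DESeq2 (adjusted p = 0.00105), with the run covariate (adjusted p = 0.00413), in the compared groups alone (adjusted p = 0.0389) and without resident day 12 replicate 1 (adjusted p = 0.0403). Recruited Arg1 (adjusted p = 0.0939) was called with the run covariate (adjusted p = 0.00116) and without recruited day 12 replicate 1 (adjusted p = 0.0199). Resident Slc7a2 was nearest the threshold (adjusted p = 0.0386). Its call was lost with a block for replicate number over all days (adjusted p = 0.0546), with scaling by library size (adjusted p = 0.122) and without the count filter (adjusted p = 0.0612). It was also lost without any of 10 single libraries (adjusted p up to 0.141), among them each of day 0 and day 3. The resident Odc1 call was lost without resident day 3 replicate 3 (adjusted p = 0.0556), and that of recruited Sat1 without recruited day 3 replicate 1 (adjusted p = 0.0688). In the compared groups alone, the recruited calls of Slc7a2 (adjusted p = 0.0647) and Sat1 (adjusted p = 0.0558) were lost. The population difference itself changed since day 3 in 3 of 9 genes on day 6 (8.43%), day 9 (13.2%) and day 12 (13.6%), and over any day in 3 (10.7%): Asl, Srm and Sat1 each time. Of these Srm moved up (4.18%, 7.4% and 7.38% of all genes did on days 6, 9 and 12) and Asl and Sat1 moved down (4.26%, 5.78% and 6.24%). Over any day, the Sat1 call (adjusted p = 0.0345) was lost without any of 13 single libraries (adjusted p up to 0.138), with scaling by library size (adjusted p = 0.0817) and without the count filter (adjusted p = 0.0663), that of Asl with scaling by library size (adjusted p = 0.065) and that of Srm without recruited day 3 replicate 2 (adjusted p = 0.0511). In the other 6 genes a change of the difference was not called, with standard errors of 0.29 to 2.06 log2. With the replicate block, a change over any day was called for Arg1 (adjusted p = 0.0339) and Arg2 (adjusted p = 0.0305). That of Arg2 was called as well by DESeq2 (adjusted p = 0.0358), with the run covariate (adjusted p = 0.0404), and without recruited day 6 replicate 3 (adjusted p = 0.0443), recruited day 9 replicate 3 (adjusted p = 0.0291) or resident day 9 replicate 1 (adjusted p = 0.0291).

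**Figure D5:**
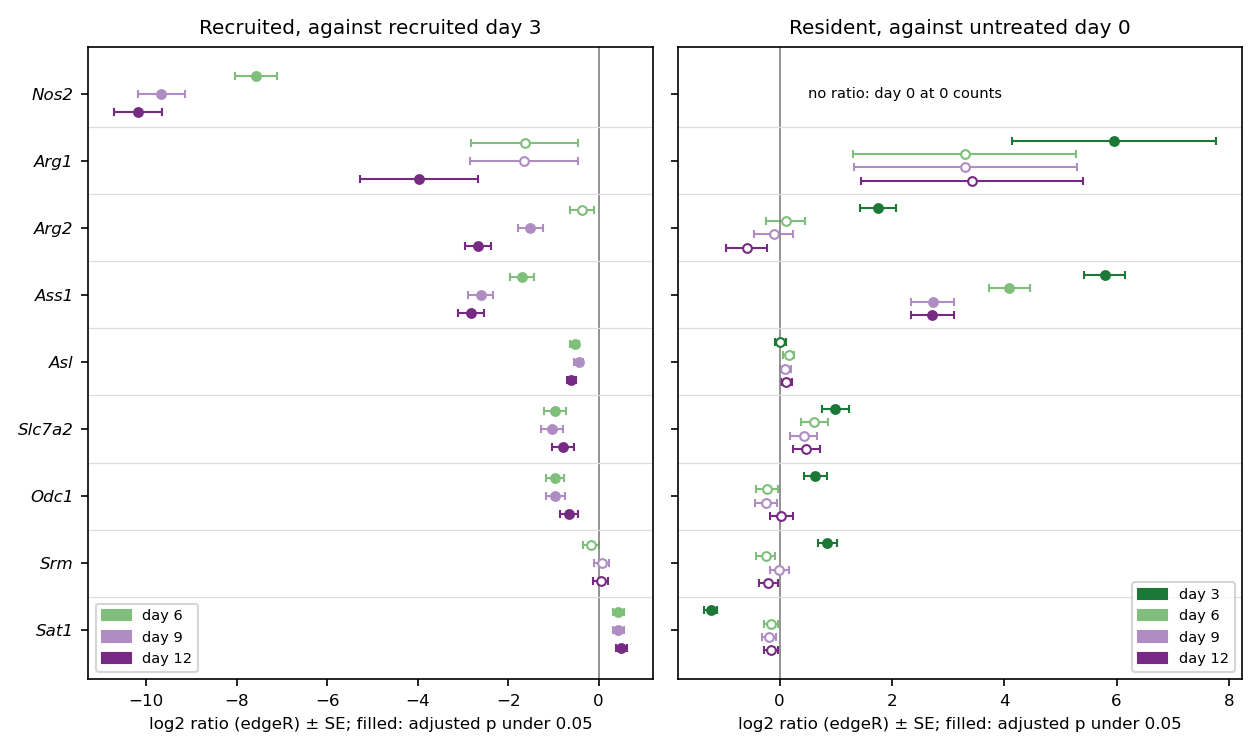
Log2 ratio over time for the 9 genes with standard errors: recruited cells of days 6, 9 and 12 against recruited day 3 on the left, and resident cells of days 3, 6, 9 and 12 against untreated day 0 on the right. Filled points have an adjusted p under 0.05. Resident points of day 3 lie away from 0 for all genes shown but Asl, and Ass1 is the only gene filled on every resident day. Resident Nos2 has no ratio because untreated cells had no count.

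Recruited cells of day 12 were also set against untreated resident cells, which differ from them in sort gate, treatment and day together. Here 6 of 9 genes were called (31% of all genes), 5 higher (15.5%) and 1 lower (15.5%). Ass1 was higher by 4.98 ± 0.37 log2 (adjusted p = 1.79e-09), Arg2 by 1.87 ± 0.32 log2 (adjusted p = 9.44e-05) and Arg1 by 7.51 ± 1.83 log2 (adjusted p = 0.0036), the last at 5.14 log2 without recruited day 12 replicate 1 (adjusted p = 0.0373). Sat1 was lower by -0.59 ± 0.12 log2 (adjusted p = 0.000683). Slc7a2 was higher by 0.69 ± 0.24 log2 (adjusted p = 0.0309), a call lost without recruited day 12 replicate 2 (0.53 log2, adjusted p = 0.143) or replicate 3 (0.61 log2, adjusted p = 0.0997), without untreated replicate 1 (0.60 log2, adjusted p = 0.115) or replicate 3 (0.72 log2, adjusted p = 0.065), and with scaling by library size (0.62 log2, adjusted p = 0.0934), without the count filter (0.70 log2, adjusted p = 0.0504) or in the compared groups alone (0.71 log2, adjusted p = 0.0528). Srm missed the threshold (-0.43 ± 0.17 log2, adjusted p = 0.0507) and passed it without recruited day 12 replicate 2 (-0.58 log2, adjusted p = 0.0188), without untreated replicate 2 (-0.50 log2, adjusted p = 0.0494) and by DESeq2 (-0.42 log2, adjusted p = 0.0494).

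Of the 40 other genes of these pathways, 35 were tested, and Nos1, Nos3, Otc, Agmat and Pycr1 had too few counts. Averaged over days, recruited cells were higher in 15 and lower in 12, or 77.1% called, against 60.3% of all genes (30.3% higher, 30% lower). The largest differences among those whose libraries did not overlap were those of Slc18b1, a vesicular polyamine transporter (-3.28 ± 0.22 log2, adjusted p = 7.27e-12), Gatm, which uses arginine on the way to creatine (2.92 ± 0.18 log2, adjusted p = 6.15e-12), Smox, spermine oxidase (1.33 ± 0.12 log2, adjusted p = 1.99e-09), and Qdpr, which regenerates the tetrahydrobiopterin cofactor of nitric oxide synthase (-0.98 ± 0.07 log2, adjusted p = 6.13e-11). Gatm followed a course like that of the raised members, with means of 157.1 ± 23.9, 41.8 ± 13.1, 28.6 ± 12.8 and 27.9 ± 8.09 CPM in recruited cells of days 3, 6, 9 and 12 (SD), against 10.4 ± 2.23 CPM in resident cells of day 3 and 3.56 ± 0.351 CPM in untreated ones. By day, 7 were higher and 12 lower on day 3, 8 and 8 on day 6, 11 and 9 on day 9, and 7 and 6 on day 12. These were 54.3%, 45.7%, 57.1% and 37.1% of the 35, against 46.6%, 35%, 32% and 27.3% of all genes. On day 3 the antizyme inhibitor gene Azin2 was 13.7-fold higher (64 against 5 counts, counting interval 5.57 to 43.6), and Ddah1, which clears inhibitors of nitric oxide synthase, had 0 counts in recruited and 8 in resident cells.

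In resident cells of day 3, 9 of the 35 genes rose and 2 fell against day 0, or 31.4% called, against 23.8% of all genes (13.3% higher, 10.5% lower). Gatm rose by 1.55 ± 0.37 log2 (adjusted p = 0.0044), Gch1, the entry enzyme of tetrahydrobiopterin synthesis, by 1.03 ± 0.18 log2 (adjusted p = 0.000258) and the antizyme gene Oaz2 by 0.82 ± 0.20 log2 (adjusted p = 0.00423), and the polyamine transporter gene Atp13a3 fell by 1.11 ± 0.15 log2 (adjusted p = 1.29e-05). By day 6 there were 3 higher and 2 lower, and on days 9 and 12 1 was higher, the lysosomal polyamine transporter gene Atp13a2 (0.48 and 0.47 log2, adjusted p = 0.0237 and 0.0431). The shares called were 14.3%, 2.86% and 2.86% on days 6, 9 and 12, against 6.42%, 3.49% and 1.3% of all genes. Recruited cells against day 3 had 7 higher and 6 lower on day 6, 9 and 6 on day 9, and 10 and 7 on day 12, or 37.1%, 42.9% and 48.6% called, against 31.9%, 36.3% and 39.3% of all genes. There Gch1 fell by 1.12 log2 on day 6 (adjusted p = 5.16e-05) and 1.51 log2 on day 12 (adjusted p = 6.83e-07), Gatm fell by 1.91 log2 on day 6 (adjusted p = 0.000127) and 2.50 log2 on day 12 (adjusted p = 4.31e-06), and Atp13a3 rose by 0.82 log2 on day 6 (adjusted p = 0.00021). The median change of the 35 genes was 0.21 log2 in resident cells of day 3 and 0.10 log2 in recruited cells of day 12, against 0.00 and 0.02 log2 over all genes.

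Some genes elsewhere in the table had group means that ran close to those of the members. Likeness was the Pearson correlation of log2 CPM means over the 9 groups among 7933 genes, given as a description of points that share libraries. For Nos2 the closest were Gpr84 (r = 0.996), Osbpl3 and Metap1, for Arg1 Zmynd15 (r = 0.991), Pvr and Mms19, and for Arg2 1700017B05Rik (r = 0.986), Tnfsf9 and Ier3. Ass1 ran closest to Adora2b (r = 0.993), 6530402F18Rik and Met, Asl to Dgat2 (r = 0.951), Map2k1 and Rbck1, and Slc7a2 to Procr (r = 0.984), Gbp3 and Il1b. Odc1 ran closest to Wdr36 (r = 0.988), Eif2s1 and Rars, Srm to Pa2g4 (r = 0.975), Sae1 and Thop1, and Sat1 to Zfp950 (r = 0.981), Bmf and Fam120b. Among the members, Arg1 and Arg2 were the closest pair (r = 0.966), and Sat1 ran opposite to Nos2 (r = -0.925).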

How the data were processed

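The authors deposited raw counts, the reads assigned to each Ensembl gene in each of the 27 libraries, with no normalization. Without roles, the submitters' processing notes name mm10, R 3.1.0, DESeq2 1.4.5, HTSeq 0.6.0 and STAR 2.4.0a. Per the labels' protocols, a stranded KAPA mRNA kit was used in modified form, with sequencing on an Ion Proton. Counting strand and annotation release: not given in the sources used here. Unassigned reads, a deposited table of their own, entered no library size and no test. They were read for the library numbers, which were then cut into runs here. They also gave the share of reads outside any gene (6.77% to 26.5%, highest in recruited day 6 replicate 2).

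Symbols and positions came from GENCODE mouse release M21 and sequences from RefSeq. The processed pseudogene Ass-ps1 is not among the counted genes. Genes were kept by filterByExpr (minimum count 10, minimum total 15), leaving 13599. edgeR 4.0.16 in R 4.3.3 fitted the 9 group means to the 27 libraries jointly (TMM scaling, robust dispersions, 18 residual degrees of freedom) with two-sided quasi-likelihood tests and Benjamini-Hochberg adjustment, since an exact permutation test of 3 against 3 cannot go below p = 0.1. Tests on simulated counts were checked first. Plotted and correlated log2 CPM used a prior count of 2. Floors (3 counts over a group) and 95% intervals cover counting error only. No libraries of a group agreed within sampling noise.

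The 9 members, the pathway list, the markers and the tests were chosen with earlier results of these data known. In each comparison, all members are named, and up to 4 pathway genes by size of change among those called with no overlap between libraries. The text gives a selection of these. The 3 closest genes in pattern had at least 20 CPM in their highest group mean. In all 12 recruited and resident pairs that share day and number, the libraries deviated together from their groups (Pearson r across genes 0.166 to 0.518), and each of these 24 libraries correlated best with its own number of that day. The pairing comes from the data, not from the labels, and the replicate block is given where it changes a call. No comparison across days had every r above 0.1, although the recruited libraries of days 6 and 3 correlated best with their own number in 6 of 6 cases (r 0.0865 to 0.212). Comparisons across days were thus not taken as paired. As an alternative only, they were also fitted with a block for each replicate number over all days. Alternatives were scaling by library size, DESeq2 1.42.0, no count filter, the compared groups alone, a covariate for the run of library numbers, the replicate block, each library left out, other CPM scalings and transcript length.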

Additional observations from a re-analysis of the deposited data

Results flagged for a closer look

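Effects of the same contrast differed between days in 3 of the 9 genes, by a test of the difference itself, with day 3 shared by all of them. The recruited minus resident difference of Asl changed since day 3 by -0.68 log2 on day 6 (adjusted p = 0.00352), by -0.54 log2 on day 9 (adjusted p = 0.0128) and by -0.72 log2 on day 12 (adjusted p = 0.00136). The day 9 value was not called with scaling by library size (-0.39 log2, adjusted p = 0.143) or in the compared groups alone (-0.50 log2, adjusted p = 0.0832). For Srm it changed by 0.93 log2 on day 6 (adjusted p = 0.0156), by 0.92 log2 on day 9 (adjusted p = 0.0113) and by 1.09 log2 on day 12 (adjusted p = 0.00327), and the first of these was lost without recruited day 3 replicate 2 (0.82 log2, adjusted p = 0.0529).

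For Sat1 it changed by -0.65 log2 on day 6 (adjusted p = 0.0218), by -0.61 log2 on day 9 (adjusted p = 0.0212) and by -0.57 log2 on day 12 (adjusted p = 0.0318). These calls were the least stable. That of day 6 was lost without recruited day 3 replicate 2 (-0.60), recruited day 6 replicate 1 (-0.58) or 2 (-0.57), resident day 3 replicate 3 (-0.59), or resident day 6 replicate 1 (-0.57) or 3 (-0.60). That of day 9 was lost without recruited day 3 replicate 2 (-0.57), recruited day 9 replicate 1 (-0.48), resident day 3 replicate 3 (-0.56) or resident day 9 replicate 1 (-0.56), and in the compared groups alone (-0.58). That of day 12 was lost without recruited day 12 replicate 2 (-0.56) or 3 (-0.53), recruited day 3 replicate 2 (-0.53) or 3 (-0.55), resident day 12 replicate 1 (-0.47) or 2 (-0.57), or resident day 3 replicate 2 (-0.56) or 3 (-0.51), with scaling by library size (-0.45) and without the count filter (-0.57). The adjusted p of these ran from 0.0561 to 0.119.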

How the results depend on the processing

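Of 2669 values of the 171 member results under alternatives, 2531 kept the side of the threshold, 102 lost a call, 36 gained one, and no called value changed sign. With the replicate block of same-numbered libraries, the genes whose population difference changed since day 3 numbered 2198, 2902 and 2952 on days 6, 9 and 12 (1147, 1793 and 1853 without it) and 2454 over any day (1449), with 5 members called over any day, Arg1 and Arg2 added to the 3. With the run covariate these were 2062, 2802, 2819 and 2483, and resident days 6, 9 and 12 against day 0 gave 1586, 1076 and 379 genes (873, 474 and 177 without it). In the compared groups alone, recruited minus resident on day 9 gave 2497 genes (4350), resident day 6 1446 with 3 members, resident day 9 122, recruited day 9 2772 (4933), recruited day 12 5 members, the difference on day 9 947 with 1 member, and any recruited day 3358 (5105). DESeq2 gave 2 members on resident day 6, and 813 and 398 genes on resident days 9 and 12. With scaling by library size, 1 member was called for any change of the difference.

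Leaving out a library gave 1895 to 2850 genes on resident day 3 (3232), 450 to 605 on day 6, 167 to 405 on day 9 and 75 to 144 on day 12, 2106 to 3773 over any resident day, and 897 to 1679 for any change of the difference. The low ends of day 3 and of any resident day came without resident day 3 replicate 3, that of day 6 and day 9 without day 0 replicate 1, that of day 12 without day 12 replicate 1, and that of the difference without recruited day 3 replicate 2 (939 genes without replicate 3). Members called were then 1 to 4 for the difference on day 6 and 1 to 4 over any day, lowest without recruited day 3 replicate 2. The cause of these shifts was not tested. Scaling by library size moved the median of all genes by -0.12 log2 for recruited minus resident on day 3, 0.12 log2 for recruited day 9, and 0.117, 0.154 and 0.119 log2 for the change of the difference on days 6, 9 and 12. The share of higher among called genes became 38.6% on day 3 between populations (49.7%), 37.1%, 27.7% and 64.2% on resident days 6, 9 and 12 (58.8%, 46.2% and 84.2%), 57.4% and 63.0% on recruited days 6 and 9 (47.3% and 50.3%), 70.7%, 76.5% and 71.5% for the change of the difference (49.5%, 56.2% and 54.2%), and 39.7% for recruited day 12 against resident day 0 (50.0%). Depth limits Nos2 in resident cells from day 6 on.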
